A study of Arabidopsis thaliana with 6 samples.

Results

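The late embryogenesis abundant (LEA) genes described here are the *Arabidopsis thaliana* LEA genes other than the dehydrins and the COR15 pair, 39 loci taken by their locus identifiers from the genome-wide LEA inventory and not by any measured value, of 33555 genes listed in the deposited tables. They fall into 8 families named after their conserved sequence domains: 16 LEA_4 genes, 6 seed maturation protein (SMP) genes, 4 LEA_3, 3 LEA_1, 3 LEA_2, 3 LEA_6 (the PvLEA18 type), 2 LEA_5 and 2 AtM genes. Transcript levels were measured by RNA-Seq in rosette leaves of Col-0 plants under 3 conditions, with 2 independent biological samples each: watered plants (W), plants dried in air for 2 h for the first time (S1), and plants in the third such drying, with 22 h of full rehydration after each earlier one (S3). The labels and methods give no further treatment. The labels name WS as the genotype beside Col-0 as the ecotype of every sample, which was not resolved here. Plants of all conditions had been taken out of soil and kept overnight in humid chambers, after which W was sampled and the drying cycles began, and no sequenced control was kept in water for as long as the S3 plants. Reads were longer in W than in S1 and S3, so that read length and stress cannot be told apart in the comparisons with W, whereas S1 and S3 had reads of the same length.

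LEA proteins are small and mostly very hydrophilic. They were first found in seeds, where they accumulate late in development as the embryo dries, and many are unfolded in water and fold into helices as water is lost. They are thought to shield membranes and other proteins during drying. In leaves most LEA genes are silent or weakly expressed until water becomes short, and the hormone abscisic acid (ABA) is a main inducer, acting through bZIP transcription factors of the ABF and ABI5 group that bind the ABA response element (ABRE) in promoters. The DREB factors bind a separate element, the dehydration responsive element (DRE), and seed regulators of the B3 class bind the RY element.

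The upstream sequences of 6 members that differ in their responses are given first. No relation of these sequences to the responses was tested. Each is the 250 bases directly before the RefSeq gene start in the TAIR10.1 assembly, written on the strand of the gene, and capitals mark the letters ACGTG (the ABRE core), ACCGAC or GCCGAC (DRE) and CATGCA (RY) on either strand. LEA7 (chr1:19619474-19619723, plus strand), AT3G02480 (chr3:511970-512219, plus strand) and LEA4-5 (chr5:2090431-2090680, minus strand) rose in S1 and again in S3. EM1 (chr3:19214472-19214721, plus strand) passed the criteria in S3/S1 but not in S1/W. LEA14 (chr1:172949-173198, minus strand) rose in S1 and did not pass the criteria between S1 and S3. SAG21 (chr4:1047106-1047355, minus strand) rose in both steps and holds none of these words in this window.
LEA7: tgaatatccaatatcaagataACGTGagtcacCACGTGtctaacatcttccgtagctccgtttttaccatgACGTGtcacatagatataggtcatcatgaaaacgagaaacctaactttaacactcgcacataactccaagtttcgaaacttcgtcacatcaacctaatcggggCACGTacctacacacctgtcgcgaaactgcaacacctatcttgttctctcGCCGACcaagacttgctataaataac
AT3G02480: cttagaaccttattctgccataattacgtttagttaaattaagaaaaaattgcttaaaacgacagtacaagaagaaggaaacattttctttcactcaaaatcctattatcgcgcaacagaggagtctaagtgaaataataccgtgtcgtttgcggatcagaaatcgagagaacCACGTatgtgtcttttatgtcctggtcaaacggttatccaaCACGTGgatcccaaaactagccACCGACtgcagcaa
LEA4-5: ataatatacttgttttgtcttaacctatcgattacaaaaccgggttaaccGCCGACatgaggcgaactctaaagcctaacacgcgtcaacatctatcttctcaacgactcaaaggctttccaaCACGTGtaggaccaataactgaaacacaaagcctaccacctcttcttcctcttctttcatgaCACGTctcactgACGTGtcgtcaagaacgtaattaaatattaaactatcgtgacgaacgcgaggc
EM1: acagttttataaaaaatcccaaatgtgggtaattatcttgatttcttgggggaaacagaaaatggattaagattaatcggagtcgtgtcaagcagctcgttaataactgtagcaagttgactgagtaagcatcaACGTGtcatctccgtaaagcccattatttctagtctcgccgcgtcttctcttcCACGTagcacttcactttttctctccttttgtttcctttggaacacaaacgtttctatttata
LEA14: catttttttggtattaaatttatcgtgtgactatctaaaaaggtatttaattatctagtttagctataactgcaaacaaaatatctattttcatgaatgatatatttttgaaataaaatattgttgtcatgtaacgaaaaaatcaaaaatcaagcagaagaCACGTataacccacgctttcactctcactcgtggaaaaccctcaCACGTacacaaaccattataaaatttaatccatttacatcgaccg
SAG21: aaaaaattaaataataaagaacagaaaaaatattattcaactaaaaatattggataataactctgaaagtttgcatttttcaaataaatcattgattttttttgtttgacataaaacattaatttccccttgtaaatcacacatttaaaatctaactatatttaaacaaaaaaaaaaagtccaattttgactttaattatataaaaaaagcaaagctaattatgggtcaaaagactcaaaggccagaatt

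The levels are FPKM, fragments scaled to transcript length and to the mapped fragments of the library, as the authors deposited them for each replicate. The tables hold no read counts, so the depth behind a value is unknown and no counting interval is given. A value of 0 may be an estimate that failed: RBCS1A and CAB1, leaf genes at 6085 FPKM or more in S1, have a value of 0 in both W libraries, and 13 genes in all combine a 0 in both W libraries with 100 FPKM or more in all 4 stress libraries. None of these 13 is a member, but where a member is listed at 0 in both W libraries only its library values are given, without a fold change over W. The 24759 genes above 0 in at least 1 library, 35 members among them, were fitted with limma on log2(FPKM + 1), a scale that understates the change of low genes. A gene was called where its Benjamini-Hochberg adjusted p was at most 0.05, its log2 fold change at least 1 in size and its mean FPKM above 1.10, the 25th percentile of values above 0, in at least 1 of both conditions. Response classes are written as in the study, the sign of the S1/W call followed by the sign of the S3/S1 call, with = for no call. These p-values rest on the spread between the 2 samples of a condition, pooled over the 3 conditions and moderated across genes. In leaves sampled in bulk, a change in the share of a cell type and a change in RNA per cell cannot be told apart.

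Together the 39 genes made up little of the leaf transcriptome in W and far more of it after repeated drying. Their summed level was 406 and 433 FPKM in the W libraries, 4239 and 4669 in S1, then 11746 and 12724 in S3. As a share of all FPKM this was 0.0433% and 0.0486% in W, 0.435% and 0.481% in S1, then 1.25% and 1.42% in S3, and the conditions did not overlap. The gene that contributed most also differed: AT2G44060 in W, LEA14 in S1 with 56.0% and 56.6% of the sum, and AT3G02480 in S3 with 31.3% and 30.8%. In both W libraries 32 members were below 1 FPKM (82.1%, beside 49.0% of all genes listed), of which 21 were at 0 in both. The number below 1 FPKM in both libraries was 15 in S1 and 13 in S3. A mean of at least 10 FPKM was reached by 6 members in W, 13 in S1 and 18 in S3.

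**Figure D1:**
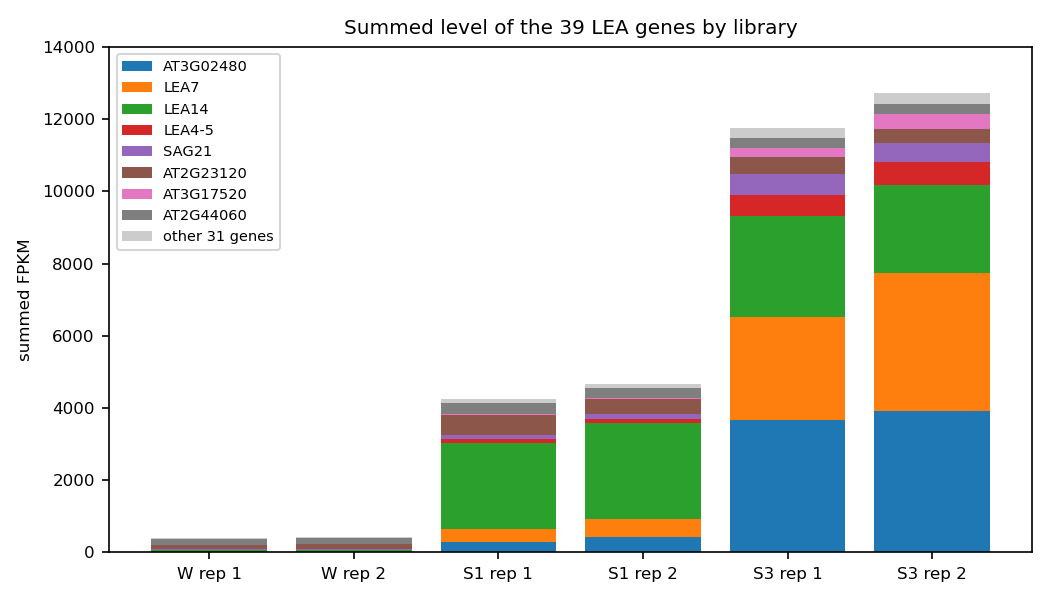
Summed FPKM of the 39 LEA genes in each library, stacked by the 8 genes with the highest means in S3 and the other 31 together. The sums lie at 406 and 433 FPKM in W, 4239 and 4669 in S1, then 11746 and 12724 in S3, with LEA14 the largest block in S1 and AT3G02480 and LEA7 the largest in S3.

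In the first drying 20 members rose above W and 1 fell, where 13.7% and 12.1% of all genes tested did so. Between S1 and S3, 18 members rose and 2 fell, beside 5.54% and 6.71% of all genes tested. Relative to W, 23 members were higher in S3 and none was lower by limma, beside 15.3% and 14.4%, and 0 members were lower at an unadjusted p under 0.05. S1/W and S3/S1 share the S1 libraries. Over the 35 members tested, the median log2 fold change was 1.09 in S3/S1, beside 0.00 over all genes tested. No median is given over W, where many members were listed at 0. Counted without the criteria, 29 members had both S1 values above both W values and 1 had both below (38.8% and 36.1% of all genes), 24 and 6 did so for S3 against S1 (33.1% and 33.4%), and 29 and 0 for S3 against W (39.9% and 35.8%). Of the 20 members that rose in S1, 9 were listed at 0 in both W libraries, and so were 12 of the 23 that were higher in S3 than in W.

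The [+/+] class, higher in S1 and higher again in S3, held 14 members, which compares with 1.34% of all genes tested. The [+/=] class held 4 members (8.99% of all genes), [+/-] held 2 (3.37%), [=/+] held 3 (2.88%) and [-/+] held 1 (1.31%). A further 11 of those tested were in no class of change, [=/=], which took 69.1% of all genes. No member was [-/-], [-/=] or [=/-], the classes of 1.11%, 9.69% and 2.23% of all genes. The other 4 were listed at 0 in every library. When 1 library was left out in turn, the number of [+/+] members was between 10 and 12, 10 of them without S1 replicate 1 or without S3 replicate 2.

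**Figure D2:**
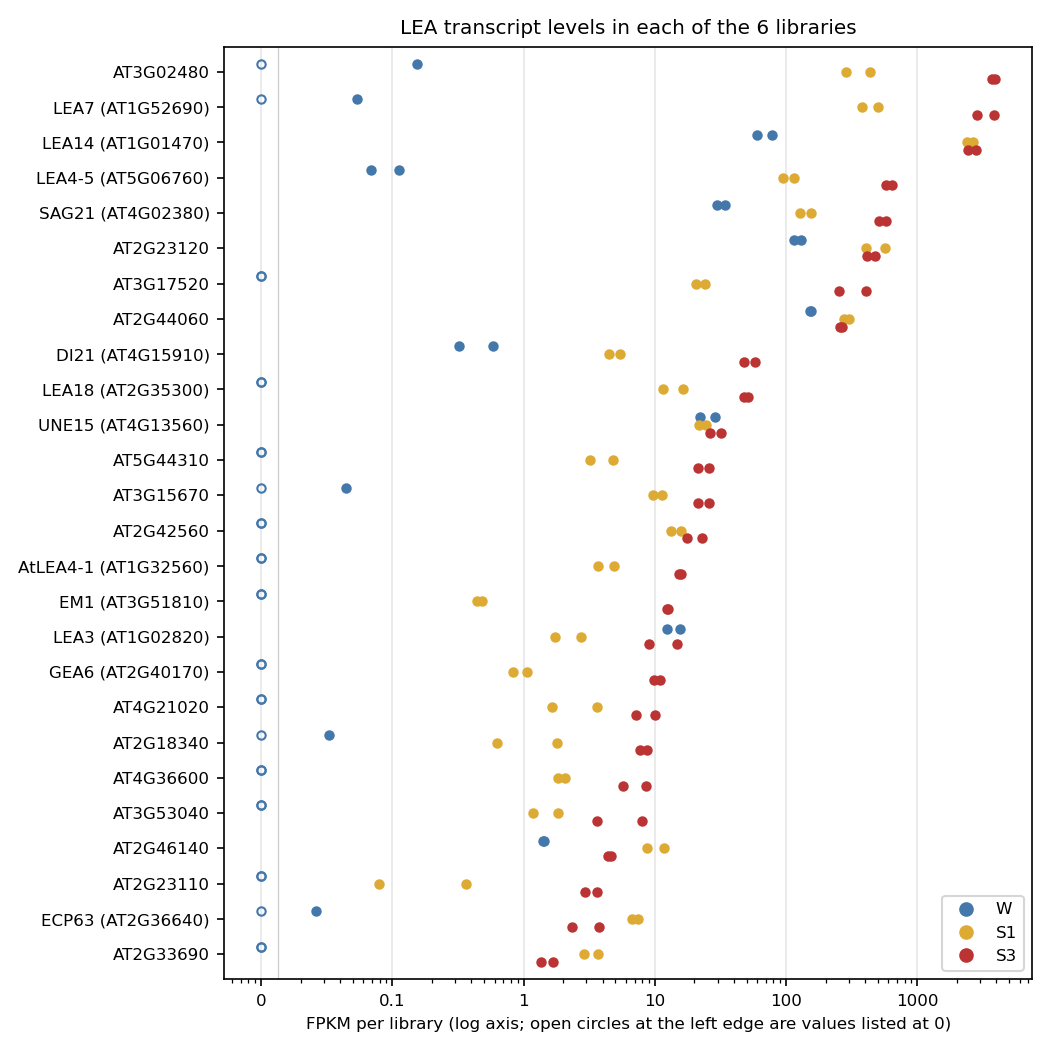
FPKM in each of the 6 libraries (log axis, with values listed at 0 drawn as open circles at the left edge) for the 26 LEA genes that were called in a comparison or reached a mean of 10 FPKM, ordered by their mean in S3. Most W points lie at the left edge or below 1 FPKM, and for the genes at the top the S3 points lie to the right of the S1 points, except for LEA14, AT2G23120 and AT2G44060.

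The LEA_4 family is the largest, and its proteins are built of repeats that are predicted to form amphipathic helices on drying. Of the 16 members 15 were tested, 11 rose in S1/W, and 9 rose and 1 fell in S3/S1. AT3G02480, which encodes a short protein of 68 residues, was at 0 and 0.154 FPKM in W, 284 and 432 in S1, then 3677 and 3919.9 in S3. Its log2 fold change was 8.35 ± 0.21 (SE) for S1/W (limma, adjusted p = 5.63e-05) and 3.43 ± 0.21 for S3/S1 (adjusted p = 0.000934). It was thus near 0 in W and the most abundant member in S3. LEA7 was at 0.0541 and 0 FPKM in W, 377 and 502 in S1, then 2850.2 and 3811 in S3, with log2 fold changes of 8.73 ± 0.20 for S1/W (adjusted p = 4.88e-05) and 2.92 ± 0.20 for S3/S1 (adjusted p = 0.00112). Since both genes were near 0 in W, the size of S1/W depends on the value added to FPKM. With 0.1 added in place of 1, it was 11.8 for LEA7 and 11.1 for AT3G02480. An antisense gene that overlaps LEA7, AT1G52695, was listed at 0 in all libraries. AT3G17520 was at 0 in both W libraries, 20.5 and 24.2 FPKM in S1, then 251 and 408 in S3. Between S1 and S3 it rose by 3.78 ± 0.24 on the log2 scale (adjusted p = 0.000973), the largest fitted value of any member in that comparison. As a ratio of mean FPKM its rise of 14.7 times was below those of EM1 (27.2) and AT2G23110 (14.8), both at low levels in S1.

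A further group of LEA_4 genes rose in both steps to levels between 3.64 and 25.9 FPKM in S3. AT5G44310 was at 0 in both W libraries, 3.19 and 4.84 FPKM in S1, then 21.3 and 25.9 in S3 (S3/S1 log2 fold change 2.31 ± 0.20, limma adjusted p = 0.00213). AT3G15670, whose protein is 56.4% identical to that of LEA7, was at 0 and 0.0447 FPKM in W, 9.68 and 11.4 in S1, then 21.3 and 25.8 in S3. Its S3/S1 log2 fold change of 1.09 ± 0.15 lay just past the limit of 1, and was 0.98 without S1 replicate 1 and 0.96 without S3 replicate 2, where the call was lost. The S1 and S3 libraries of both genes did not overlap. AT2G18340 was at 0.0330 and 0 FPKM in W, 0.626 and 1.81 in S1, then 7.65 and 8.78 in S3. It overlaps AT2G18350 on the opposite strand, which moved in the same direction. AT2G18350 was at 7.88 and 5.38 FPKM in W, 10.8 and 16.6 in S1, then 21.8 and 21.6 in S3. Since strand was not stated to be used in counting, reads of the pair cannot be told apart. AT4G21020, whose protein is 51.5% identical to that of AT5G44310, was at 0 in W, 1.64 and 3.60 FPKM in S1, then 7.13 and 10.1 in S3. AT4G36600 was at 0 in W, 1.82 and 2.05 FPKM in S1, then 5.73 and 8.56 in S3. AT3G53040 was at 0 in W, 1.19 and 1.81 FPKM in S1, then 3.64 and 8.02 in S3. For these 4 genes every S3 library was above every S1 library. This also held for 33.1% of all genes tested and for every member called higher in S3/S1, so it adds nothing to the calls. Some calls at such levels were lost when single libraries were left out.

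For AT2G18340 the S1/W call (log2 fold change 1.07 ± 0.27, limma adjusted p = 0.0228) was lost when any library but S1 replicate 1 was left out, with log2 fold changes of 0.68 to 1.10 and adjusted p of 0.0329 to 0.114. Its S3/S1 call was lost without S3 replicate 1 or without S3 replicate 2 (adjusted p = 0.0573 and 0.0620). For AT3G53040 the S1/W call was lost without either W or either S1 library (adjusted p between 0.0861 and 0.153), and its S3/S1 call without any library but S3 replicate 1 (adjusted p between 0.0663 and 0.193). The S3/S1 call of AT4G21020 was lost without any library but S1 replicate 2 (adjusted p between 0.0676 and 0.138), and that of AT4G36600 without S1 replicate 1 (adjusted p = 0.0613). The direction was the same in each case, which was fixed in advance because the libraries compared did not overlap. Leaving out a library of the condition outside a comparison did not change its log2 fold change. It altered only the pooled spread behind the p-value, so such losses do not rest on the levels in that library.

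AT2G42560 and ECP63 rose in the first drying and were not called higher in S3 than in S1. AT2G42560, the longest protein of the family with 635 residues, was at 0 in both W libraries, 13.2 and 15.9 FPKM in S1, then 17.4 and 23.0 in S3. Both S3 libraries were above both S1 libraries, but its S3/S1 log2 fold change of 0.44 ± 0.18 did not pass (95% interval -0.02 to 0.90). ECP63, named as an embryonic cell protein, was at 0 and 0.0262 FPKM in W, 6.65 and 7.42 in S1, then 2.33 and 3.76 in S3. Its S3/S1 log2 fold change was -1.01 ± 0.20 (limma adjusted p = 0.0174), at the limit, and became -0.94 with libraries scaled to the same sum and -0.98 once GC content and length were corrected for, where the call was lost. Its call was also lost in the fit to the 4 S1 and S3 libraries and when any library but S3 replicate 2 was left out (adjusted p between 0.0473 and 0.102, log2 fold changes between -1.08 and -0.75). The protein most like ECP63 is that of AT3G53040, at 62.4% identity, and its transcript was called higher in S3 than in S1, although the difference between the responses of both genes was not tested. UNE15, named for a mutant with unfertilized embryo sacs, was at 28.8 and 22.2 FPKM in W, 21.9 and 24.6 in S1, then 31.7 and 26.3 in S3, and was the only LEA_4 gene above 1 FPKM in W. It passed in no comparison, with a 95% interval for S3/W of -0.24 to 0.60 on the log2 scale. Its RefSeq transcript of 4151 bases, for a protein of 109 residues, overlaps RefSeq genes on both strands that were not among the genes listed. The FPKM come from the TAIR10 gene models used by the authors, so whether they hold reads of these genes is unknown.

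The 3 LEA_1 genes are known to contribute to tolerance of water deficit, and all rose in both steps. LEA4-5 was at 0.0683 and 0.112 FPKM in W, 94.4 and 116 in S1, then 581 and 644 in S3. Its log2 fold changes were 6.60 ± 0.12 for S1/W (limma adjusted p = 3.38e-05) and 2.54 ± 0.12 for S3/S1 (adjusted p = 0.000569). With 0.1 added to FPKM in place of 1, the S1/W value of LEA4-5 was 9.11. LEA18 was at 0 in both W libraries, 11.6 and 16.4 FPKM in S1, then 47.5 and 51.6 in S3, and rose by 1.77 ± 0.18 on the log2 scale in S3/S1 (adjusted p = 0.00289). AtLEA4-1 was at 0 in both W libraries, 3.68 and 4.88 FPKM in S1, then 15.9 and 15.2 in S3, and rose by 1.65 ± 0.15 in S3/S1 (adjusted p = 0.00236). The S3 level was thus between 3.55 and 5.83 times the S1 level for each of the 3 genes as a ratio of mean FPKM, although LEA4-5 was much more abundant than the other two.

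The Em proteins of the LEA_5 family, EM1 and GEA6 (also called EM6), are among the most hydrophilic LEA proteins and typical of dry seeds, and their genes are known targets of ABI5. Both were listed at 0 in W. EM1 was at 0.441 and 0.481 FPKM in S1, then 12.4 and 12.6 in S3. GEA6 was at 1.06 and 0.827 FPKM in S1, then 11.0 and 9.77 in S3. Neither passed the criteria in S1/W, where both stayed at or below 1.06 FPKM. In S3/S1 the log2 fold change was 3.21 ± 0.09 for EM1 (limma adjusted p = 0.000324) and 2.55 ± 0.12 for GEA6 (adjusted p = 0.000540). As a ratio of mean FPKM, EM1 in S3 was at 27.2 times and GEA6 at 11.0 times its S1 level. The mean hydropathy of the 2 proteins, a scale on which lower is more hydrophilic, was -1.47 for EM1 and -1.41 for GEA6, below the medians of all other families.

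The 3 LEA_6 genes, which encode short proteins of 75 to 92 residues, were not all called in the same step: AT2G23120 and AT2G33690 were [+/=] and AT2G23110 was [=/+]. AT2G23120 was well expressed in W, at 115 and 130.2 FPKM, and rose to 563 and 403 in S1 with 478 and 414 in S3. Its log2 fold change was 1.95 ± 0.20 for S1/W (limma adjusted p = 0.00110), and for S3/S1 the interval was -0.60 to 0.40. AT2G23110 lies only 475 bases upstream of AT2G23120 on the same strand. It was at 0 in W, 0.0795 and 0.362 FPKM in S1, then 3.60 and 2.94 in S3, and was called in S3/S1 only among the stepwise comparisons (log2 fold change 1.81 ± 0.14, adjusted p = 0.00144). The difference between the responses of these neighbours was not tested. An antisense gene that overlaps AT2G23120, AT2G23118, was at 0 in every library but S1 replicate 2, where it was at 4.53 FPKM. AT2G33690, which overlaps an antisense RefSeq gene not among the genes listed, was at 0 in W, 3.68 and 2.89 FPKM in S1, then 1.36 and 1.68 in S3. Its S3/S1 log2 fold change of -0.76 ± 0.13 had an adjusted p of 0.0112 but did not reach the limit on the fold change, although it did with a pseudocount of 0.1, where it was called lower in S3.

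LEA_3 proteins carry signals for import into mitochondria in several members. SAG21, a senescence-associated gene linked to oxidative stress, was at 34.3 and 30.0 FPKM in W, 128 and 156 in S1, then 574 and 507 in S3. As ratios of mean FPKM it rose 4.42 times in S1/W (limma adjusted p = 0.000359) and a further 3.81 times in S3/S1 (adjusted p = 0.00134). A RefSeq gene on the same strand overlaps SAG21 and was not among the genes listed. DI21, named as drought-induced, was at 0.583 and 0.320 FPKM in W, 5.40 and 4.49 in S1, then 48.0 and 57.8 in S3, with log2 fold changes of 2.04 ± 0.17 (adjusted p = 0.000635) and 3.18 ± 0.17 (adjusted p = 0.000691), and ratios of mean FPKM of 10.9 and 10.7 for the same comparisons. LEA3 was the only member that fell in the first drying. It was at 12.5 and 15.7 FPKM in W, 1.72 and 2.72 in S1, then 14.8 and 9.03 in S3, so that its S3 and W libraries overlapped. Its log2 fold change was -2.23 ± 0.29 for S1/W (adjusted p = 0.00235), 1.99 ± 0.29 for S3/S1 (adjusted p = 0.00744) and -0.25 for S3/W, with an interval of -0.98 to 0.48. The S3/S1 call of LEA3 was lost without S1 replicate 1 (log2 fold change 1.76, adjusted p = 0.0703) and without S3 replicate 1 (1.66, adjusted p = 0.0540). The other LEA_3 gene, AT3G53770, was at 0 in every library.

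LEA_2 proteins are atypical in that they fold in water and are more hydrophobic, and their median hydropathy of 0.0563 was the highest of the 8 families. LEA14 was at 59.8 and 77.7 FPKM in W, 2373 and 2640.2 in S1, then 2797 and 2445 in S3. It rose by 5.18 ± 0.20 on the log2 scale in S1/W (limma adjusted p = 0.000109), 36.5 times as a ratio of mean FPKM, and the S1 and S3 libraries overlapped, with a 95% interval of -0.44 to 0.57 for S3/S1. AT2G46140, which encodes the protein most like LEA14 (57.2% identity), was at 1.42 FPKM in both W libraries, 11.8 and 8.66 in S1, then 4.41 and 4.62 in S3. It rose in S1/W by 2.20 ± 0.17 (adjusted p = 0.000511), and its S3/S1 log2 fold change was -1.01 ± 0.17 (adjusted p = 0.0114), again at the limit. The latter was -0.94 with libraries scaled to the same sum and was just under the limit once GC content and length were corrected for, and the call was lost without S1 replicate 1, S3 replicate 1 or S3 replicate 2 (adjusted p between 0.0442 and 0.0821, log2 fold changes between -1.04 and -0.81). AT2G44060, the most abundant member in W, was at 153 and 155 FPKM in W, 299 and 278 in S1, then 258 and 268 in S3. All stress libraries were above both W libraries, but its log2 fold changes of 0.90 ± 0.09 for S1/W (adjusted p = 0.00118) and 0.77 ± 0.09 for S3/W (adjusted p = 0.00164) stayed under the limit on the fold change.

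**Figure D3:**
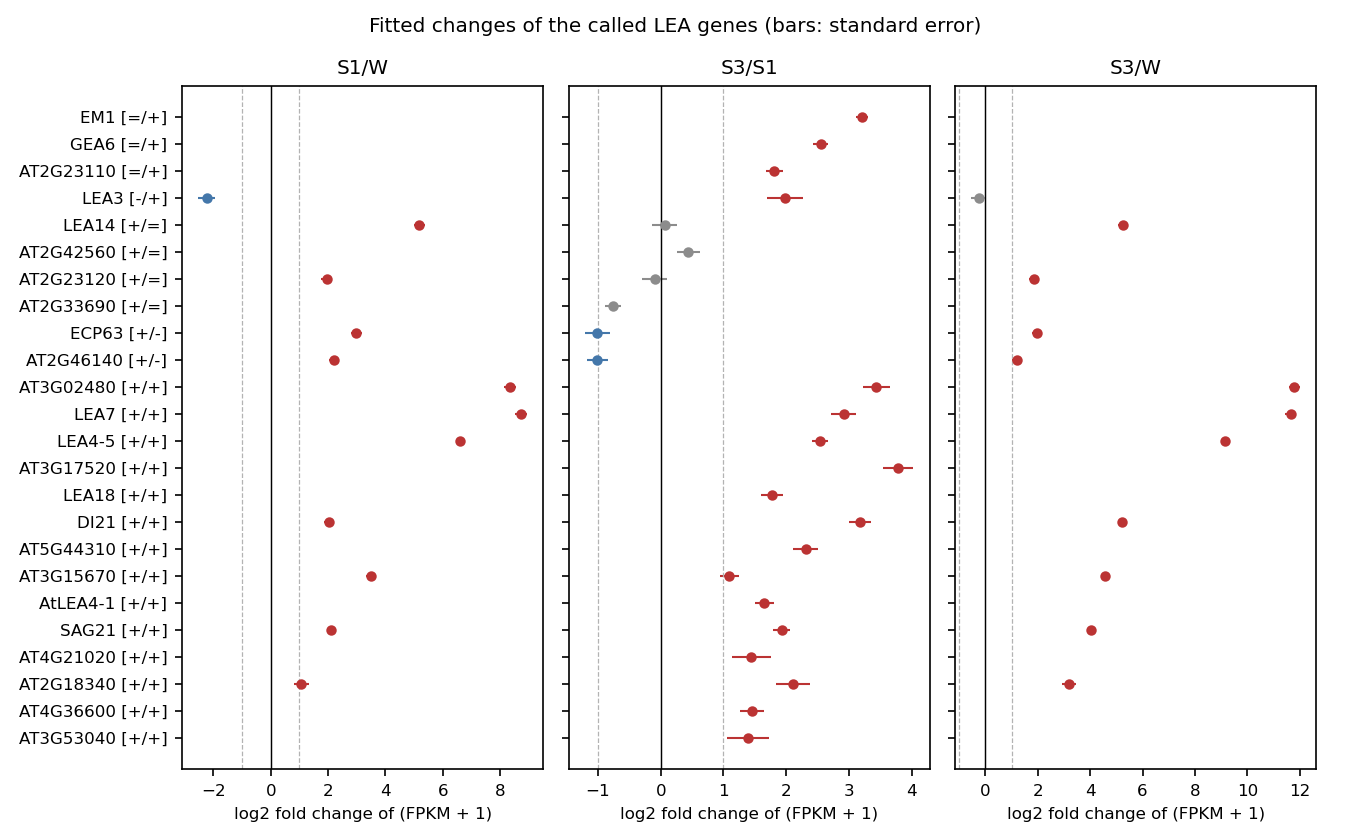
Fitted log2 fold changes of FPKM + 1 for the 24 LEA genes called in any comparison, with their response class, for S1/W, S3/S1 and S3/W (points, with bars for the standard error, red where called higher, blue where called lower, grey where not called, dashed lines at the limit of 1, and a separate axis range in each panel). Genes listed at 0 in both W libraries have no point in the comparisons with W, and in S3/S1 the values run from -1.01 for ECP63 and AT2G46140 to 3.78 for AT3G17520.

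The members at the lowest levels in these leaves included all 6 SMP genes and both AtM genes, which stayed below 1 FPKM in every library. So did the LEA_4 genes AT1G72100, AT2G03740, AT2G03850 and AT4G13230 and the LEA_3 gene AT3G53770, 13 of the 39 in all (33.3%, beside 44.1% of all genes listed). Of these 13, M17, AT3G53770, AT4G13230 and AT5G53270 were at 0 in every library, and the other 9 were above 0 in at least 1. RAB28, an ABA-responsive SMP gene, came closest to the limit, at 0.0798 and 0 FPKM in W, 0.357 and 0.650 in S1, and 0.97 in both S3 libraries. Its S3/W log2 fold change of 0.92 ± 0.10 (limma adjusted p = 0.00129) was below the limit on the fold change, and its level was below that on FPKM. AT2G03740 and AT2G03850, with proteins 68.9% identical, were detected in different conditions. AT2G03740 was at 0.704 and 0.683 FPKM in S1 and at 0 in W and S3, and AT2G03850 was at 0.354 and 0.468 FPKM in S3 and at 0 in W and S1. AT3G22490 and ATECP31 (79.4% identity) and AT5G53260 and AT5G53270 (74.2%) are pairs of near neighbours, and none of the 4 was above 0.114 FPKM, so reads that may be shared within a pair bear on no call.

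The upstream sequences were searched on both strands in the 250 bases before the RefSeq gene start of each member and of 27443 protein-coding genes. The windows of RAB28, AtLEA4-1, AT1G72100, AT2G18340, AT2G33690, AT2G44060, AT3G22490, AT5G27980 and AT5G53270 overlap another annotated gene, and words there were counted as well. At least 1 ABRE core ACGTG was found upstream of 28 members (71.8%), beside 22.9% of all promoters, and the longer forms ACGTGGC or ACGTGTC, which contain the core, upstream of 23 (59.0%, beside 6.39%). At least 2 cores were found upstream of 21 members, beside 4.98% of all promoters. The DRE words ACCGAC or GCCGAC were found upstream of 13 members (33.3%, beside 7.09%) and the RY word CATGCA upstream of 6 (15.4%, beside 8.43%). Among the 14 [+/+] members, 13 held the core, 12 the longer form and 10 a DRE word. Among all [+/+] genes of the leaf transcriptome, 44.2% held the core and 10.7% a DRE word.

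The core was also found upstream of members at low levels. Of the 13 members below 1 FPKM in every library, 8 held the core (61.5%) and 7 the longer form (53.8%). A DRE word was found for 1 of the 13 (7.69%), near the 7.09% of all promoters. The [=/+] members EM1 and GEA6 each held 1 longer form and 1 further core, and AT2G23110 held 1 core, and none of these 3 held a DRE word. LEA7 held 4 cores and a DRE word, LEA4-5 held 3 cores and a DRE word, and AT3G02480 held 2 cores and a DRE word 14 bases before its gene start, as the sequences printed above show. LEA14, which was called in S1/W but not in S3/S1, held 2 cores and no DRE word. SAG21, LEA3, AT2G23120 and UNE15 held none of the words, although SAG21 rose in both steps. These matches describe letters in a window and were not tested.

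**Figure D4:**
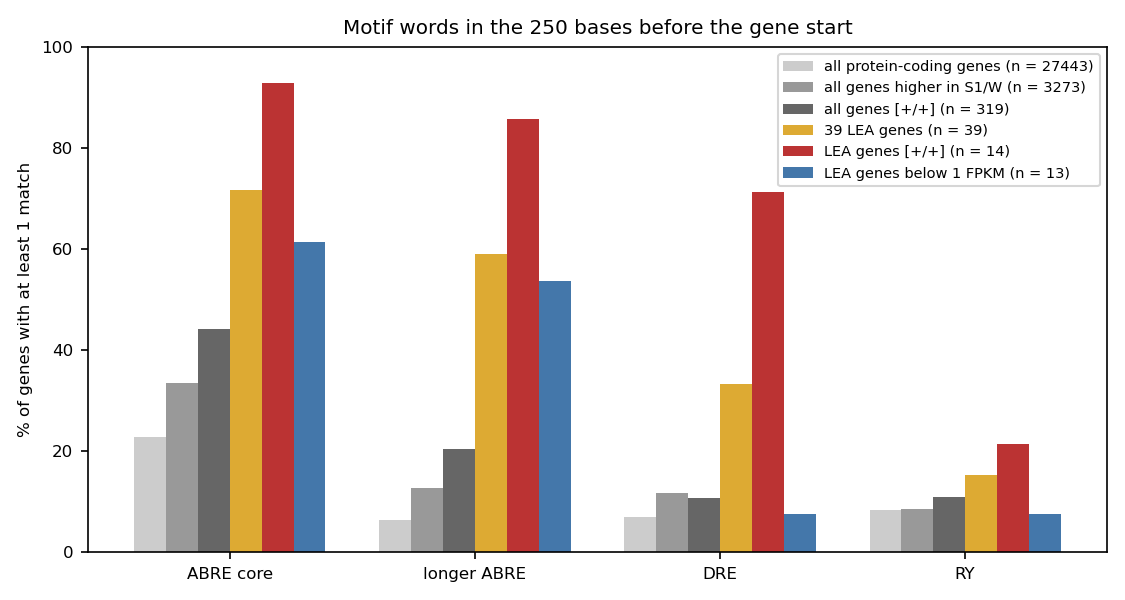
Percent of genes with at least 1 match to the ABRE core, the longer ABRE, the DRE or the RY word in the 250 bases before the gene start, for all protein-coding genes, for all genes higher in S1/W or [+/+], and for the LEA genes as a whole, in the [+/+] class and below 1 FPKM. The core was found for 71.8% of the LEA genes and 22.9% of all genes. The DRE words were found for 10 of the 14 [+/+] LEA genes, 1 of the 13 below 1 FPKM and 7.09% of all genes.

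**Figure D5:**
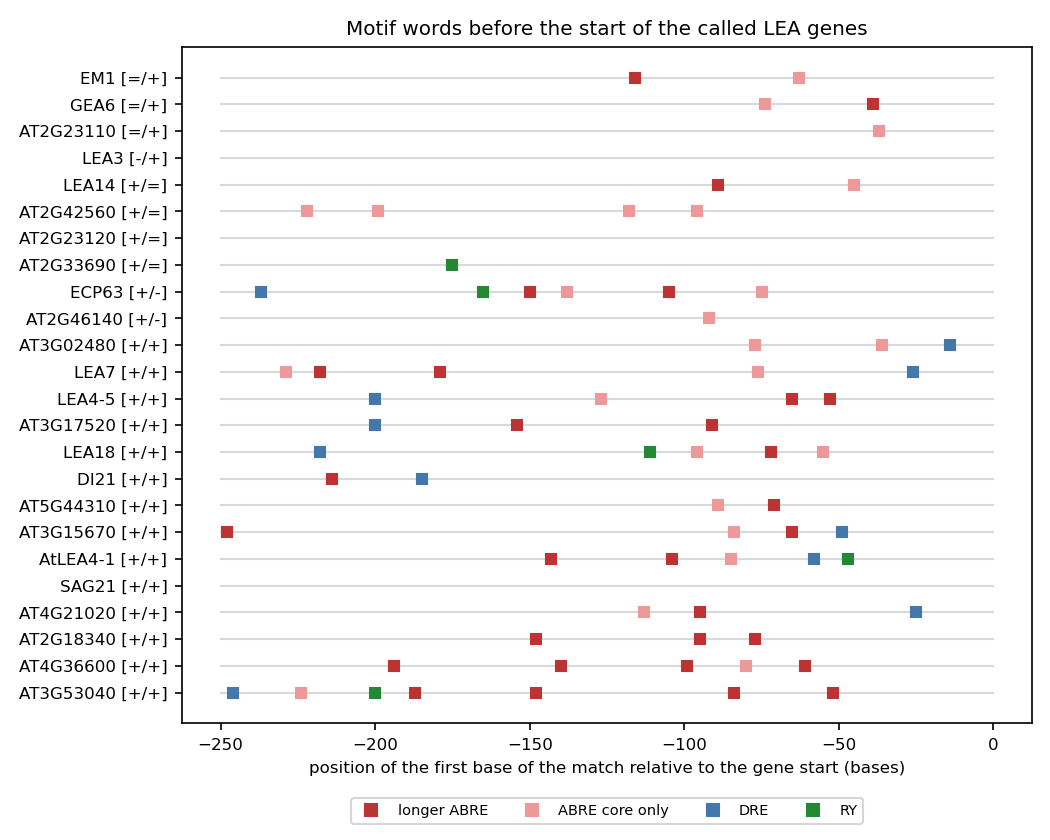
Positions of the same words before the gene start (0 on the horizontal axis, in bases, to scale) for the 24 called LEA genes, 1 line per gene, with the longer ABRE in dark red, other ABRE cores in light red, DRE in blue and RY in green. The lines of LEA3, AT2G23120 and SAG21 carry no mark, and most of the other lines carry at least 1 red mark.

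Related genes were measured in the same libraries. Of the 10 dehydrins, hydrophilic LEA proteins of another family, 7 rose in S1/W, and 3 rose and 1 fell in S3/S1. Those that rose in S1/W were COR47, ERD10, ERD14, LTI30, XERO1, AT4G38410 and RAB18, of which LTI30, XERO1 and RAB18 rose again in S3/S1 and AT4G38410 fell, and HIRD11 was called higher only in S3/W. Of the COR15 pair both rose in S1/W, and COR15B fell in S3/S1. RAB18, the dehydrin with the highest level in S3, was at 10.5 and 10.0 FPKM in W, 332 and 337 in S1, then 10796 and 12194 in S3. Of 15 regulators of LEA genes, 4 rose in S1/W (ABI5, ABF2, ABF3 and bZIP25) and 2 in S3/S1 (ABF2 and ABF4), and EEL was called higher in S3/W alone. ABI3, ABI4, bZIP67 and LEC1, which act in seeds, were at 0 in every library. ABI5, the bZIP factor known to activate the Em genes in seeds, was at 0.204 and 0.168 FPKM in W, 7.03 and 8.35 in S1, then 9.35 and 11.1 in S3, and was called in S1/W (log2 fold change 2.87, limma adjusted p = 0.000193) but not in S3/S1 (0.37, adjusted p = 0.127). EM1 and GEA6 were called in the other step. Both were listed at 0 in W and were already detected in S1, at means under the limit on FPKM. Their relation to ABI5 was not tested. ABF2 rose in both steps (10.1 and 9.88 FPKM in W, 94.6 and 129.5 in S1, then 256 and 277 in S3), and ABF3, the regulator with the highest level, was at 11.2 and 12.7 FPKM in W, 200.3 and 231 in S1, then 294 and 322 in S3. ABF3 was called in S1/W, whereas its S3/S1 log2 fold change of 0.51 (limma adjusted p = 0.0266) was under the limit. ABF4 was at 13.5 and 15.7 FPKM in W, 23.0 and 27.7 in S1, then 100.5 and 98.7 in S3. ABF4 was called higher in S3/S1 and S3/W, and its S1/W log2 fold change of 0.75 (limma adjusted p = 0.00521) was under the limit.

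Markers of other organs were at low levels. Of 12 seed marker genes, mostly of storage proteins and oil bodies, 7 were at 0 in every library and none was above 1.85 FPKM. Their summed level was at most 0.180 FPKM in W, 1.91 to 2.60 in S1 and 0.166 to 0.230 in S3. SESA1, at 1.05 and 1.85 FPKM in S1 and at 0 in W and S3, was called higher in S1/W and lower in S3/S1. The relation of these levels to those of EM1 and GEA6 was not tested. Of 4 pollen genes, none was above 1.93 FPKM. Of 3 root genes, PYK10 was at 0.0826 and 0.294 FPKM in W, 0.953 and 3.15 in S1, then 26.0 and 22.3 in S3, whereas COBL9 and PRP3 were at most 0.0747 FPKM. PYK10 thus moved with the [+/+] members, and its part in their result was not tested. The 8 leaf genes had a summed level of 37613 to 49338 FPKM in W, 26697 to 36036 in S1 and 12609 to 16116 in S3, with 6 of them lower in S1 than in W and the other 2, RBCS1A and CAB1, listed at 0 in W as described above. The part of this decline in the shares given above was not tested.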

How the data were processed

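Leaf mRNA of 6 libraries, 2 each for W, S1 and S3, was sequenced by the authors. Per their methods and the labels, reads were mapped to TAIR10 with tophat and bowtie, and cuffdiff gave the deposited FPKM values per gene and replicate. Groups follow the sample labels. FPKM were used as deposited, and since cuffdiff needs reads, log2(FPKM + 1) was fitted across all 6 libraries with limma 3.58.1 (R 4.3.3) as a model of condition alone with a variance trend (3 residual degrees of freedom, prior 2.07). The scripts were tested on simulated data. The members and the gene lists were chosen with earlier results of these data known. Members called, or averaging 10 FPKM or more in any condition, are named with every library's value, the rest by count and range, and RAB28, the SMP and AtM pairs and other members below 1 FPKM were named after their values were seen. Genes of the other lists are named only where called, at 10 FPKM or more, or where a result turns on them, except ABI3, ABI4, bZIP67, LEC1, COBL9 and PRP3, named after their values were seen. Gene models, upstream sequences and translated proteins come from RefSeq for TAIR10.1, joined by locus identifier, with Python 3.11.15. The alternatives tried were 2 other scalings, a pseudocount of 0.1, a filter at 1 FPKM, no limit on the fold change, a fit to 4 libraries, a replicate block, no variance trend, a correction for GC content and length with and without the block, and each library left out in turn.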

Additional observations from a re-analysis of the deposited data

How the results depend on the processing

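The number of reads behind a value is unknown here. With 2 replicates per condition, some calls near the limits were lost when single libraries were left out. The numbers of members higher in S1/W (20), S3/S1 (18) and S3/W (23) were 16, 18 and 21 with a filter at 1 FPKM, where the expression limit is taken over the genes kept and is higher, and 19, 16 and 23 in fits to only the 4 libraries compared. The 2 members lower in S3/S1, which are the 2 of class [+/-], numbered 0 with libraries scaled to the same sum, 0 after the correction for GC content and length with or without the replicate block, and 1 in the 4-library fit. Class [+/=] held 7 members in the 4-library fit, and class [=/+] held 7 with the filter at 1 FPKM. With each library left out in turn, members higher numbered 18 to 19, 13 to 17 and 23 in the same order, members lower in S3/S1 numbered 0 to 1, as did [+/-] and [-/+], and [+/=] held 5 to 9 members, the latter without S1 replicate 1. The deviations between replicates had a correlation of 0.171 for W and S1, 0.0158 for W and S3 and -0.00596 for S1 and S3. With 1 difference per condition, these values cannot settle whether replicate numbers pair the samples. The replicate block left the counts of members higher at 20, 18 and 23. Of the single fold changes under all alternatives, 1599 stayed on their side of the criteria, 50 were lost, 4 were gained, and none changed direction once called. In the fits with a library left out, a change of direction was not possible, because the libraries of every called comparison did not overlap. Beyond the statements given, the cause of the differences between settings was not tested.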
